A study of Mus musculus with 2 samples.

Results

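Cathepsins, the proton pump that acidifies lysosomes, the LAMP membrane glycoproteins and the transcription factors that control them were followed in mouse cultures of 2 genotypes labelled Th9. The members were every gene on the array whose RefSeq symbol marks it as a cathepsin (Cts), a subunit or accessory protein of the vacuolar proton pump (Atp6v, Atp6ap) or a LAMP, together with Tfeb, Tfe3, Mitf and Mcoln1. This gave 56 of the 20651 genes that could be matched to a probe, with 64 probes: 23 cathepsins, 25 pump and accessory genes, 4 LAMP genes, the 3 factors and the channel gene Mcoln1. The wild-type group and the group called knockout had 1 array each. The knockout group carries the genotype label SIRT1flox/flox-CD4-Cre, floxed alleles of the deacetylase gene Sirt1 with Cre under the control of Cd4, which is active in the T lineage. Both groups started from naive T cells of spleen and lymph node, sorted by flow cytometry as CD4+TCR+CD62Lhi CD44lo. Both were stimulated with anti-CD3 and anti-CD28 at 2 µg/ml each and with human IL-2 at 100 U/ml, in the presence of IL-4 at 10 ng/ml and TGFβ1 at 2 ng/ml. The culture time is given as 5 days in one label field and as 5 to 6 days in another. The labels do not state age, sex, strain, the number of mice or whether the wild-type mice carried Cre. With 1 array per group there is no replicate, so every difference below is a description of these arrays and none was tested.

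Lysosomes break down proteins, lipids and sugars at acidic pH. The vacuolar ATPase pumps protons inward through a membrane ring, V0, driven by a cytosolic ATP-hydrolysing head, V1. Cathepsins are the proteases that work in this acid, as cysteine, aspartic or serine enzymes. In antigen-presenting cells they also trim the invariant chain of MHC class II. LAMP proteins coat the inner face of the lysosomal membrane, and TRPML1, the product of Mcoln1, releases calcium from the organelle. TFEB, TFE3 and MITF are related bHLH-zipper factors that enter the nucleus when mTOR complex 1 is inactive and switch on lysosomal genes through an E-box, CACGTG, whose extended form is called the CLEAR element.

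Promoter stretches are shown for the 8 members whose window holds this E-box more than once or in the longer form TCACGTGA, because it is the sequence through which the factors are known to act on lysosomal genes. Ctsf, Ctsl and Ctsll3, with 1 copy outside the longer form, are not shown. They come from RefSeq windows on GRCm38.p6 that run from 250 bases before the start to 50 after it, and 45 of the 56 members had such a window. Every sequence is written 5′ to 3′ along the gene's strand, and the capitals mark CACGTG, which reads the same on both strands. The first 6 stretches end before the first transcribed base, and the last 3 are 30-base windows in which the match lies across the start or just after it.
Lamp1, chr8:13159085-13159160, plus strand: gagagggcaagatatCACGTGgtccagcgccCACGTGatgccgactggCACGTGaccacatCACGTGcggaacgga
Mcoln1, chr8:3500433-3500494, plus strand: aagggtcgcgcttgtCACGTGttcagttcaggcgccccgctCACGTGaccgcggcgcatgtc
Atp6v0b, chr4:117887330-117887380, minus strand: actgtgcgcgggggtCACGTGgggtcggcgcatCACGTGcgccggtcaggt
Ctsd, chr7:142387905-142387940, minus strand: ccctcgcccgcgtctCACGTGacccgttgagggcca
Atp6v1a, chr16:44139370-44139405, minus strand: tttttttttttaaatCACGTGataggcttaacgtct
Ctsa, chr2:164833746-164833772, plus strand: caatgagcaaactgtCACGTGatgcag
Ctsa, across the start, chr2:164833766-164833795, plus strand: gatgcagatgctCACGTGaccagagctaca
Atp6v0d1, across the start, chr8:105566050-105566079, minus strand: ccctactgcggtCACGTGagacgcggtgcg
Atp6v0e, across the start, chr17:26676387-26676416, plus strand: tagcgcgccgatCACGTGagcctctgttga

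Lamp1 held 4 copies of CACGTG within the 61 bases before its start, Mcoln1, Ctsa, Ctsd and Atp6v0b held 2 each in their windows, and Atp6v0d1, Atp6v0e, Atp6v1a, Ctsf, Ctsl and Ctsll3 held 1 each. The other copy in Ctsd lies 245 bases before its start and is not shown. CACGTG was present in 11 of the 45 members with a window (24.4%), against 8.09% of the 27025 genes with a window and 7.15% of all windows. The longer palindrome TCACGTGA, which contains CACGTG, was present in Atp6v0d1, Atp6v0e, Atp6v1a, Ctsa, Ctsd and Mcoln1, that is 13.3% of the members, against 1.12% of genes and 0.974% of windows. The full 10-base palindrome of the CLEAR element, which contains both, was in the window of 0 of the 45 members and of 0.37% of genes. These are matches of letters in a short window and say nothing of whether a factor was bound in these cells. The E-box was chosen because it is known from lysosomal genes, so its larger share among these members is not independent of that choice.

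Signals are the scanner software's processed signals, which differ from its background-subtracted intensities. On the wild-type array Atp6v1e1, for example, had a processed signal of 742 and a subtracted intensity of 621. Processed signals stay positive where the subtracted intensity is negative, as for Atp6v0a4 on that array, at 5.04 and -5.11. A difference is the knockout minus the wild-type value of log2 signal after each array was set to its 75th percentile. That percentile was a signal of 544 on the wild-type and 520 on the knockout array. The error given with a difference is that of the scanner software, 10% of a bright signal on each array, which comes to 0.20 on the log2 scale for a pair of bright spots. Repeat spots of the same probe varied less, with a median SD of 0.048 for a single-spot difference and a 90th percentile of 0.12. These come from 238 probes with 8 or more spots, all well above background on both arrays, so they do not describe dim probes. Neither the scanner error nor this SD covers culture, extraction or labelling. The Sirt1 probe gave 3240 on the wild-type and 2920 on the knockout array, and since no source used here places it relative to the floxed exons, it does not check the genotype label. Of the markers that define the labelled cells, T cell genes were present (11 of 11 matched well above background on both arrays), while Il9, the cytokine of Th9 cells, was well above background on neither array, at 5.48 and 7.36. Markers of other cells were present too, among them all 12 of the B cell list and 21 of the 22 matched macrophage and dendritic cell genes, so a member's signal need not come from T cells. The sort given in the labels, for CD4+ TCR+ cells, would be expected to remove B cells and macrophages, and the cell make-up of the samples is not known beyond these markers. In bulk RNA fewer cells of a type and less RNA per cell cannot be told apart.

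**Figure D1:**
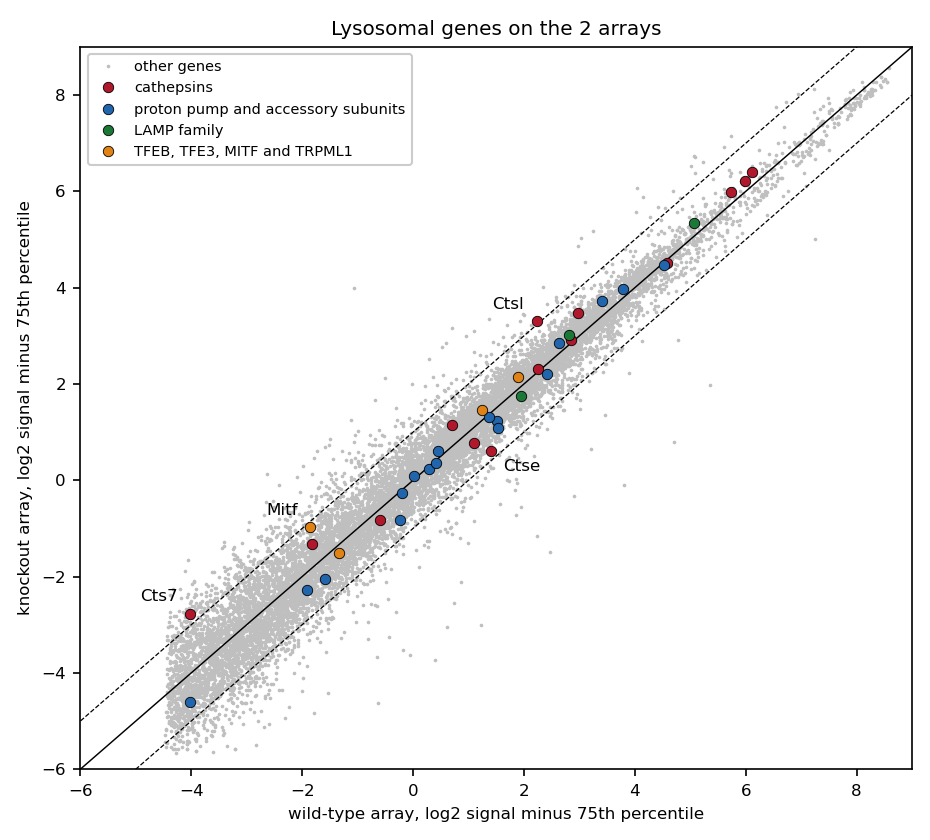
Log2 signal minus the array's 75th percentile on the wild-type array (x) and the knockout array (y), 1 point per gene well above background on both arrays, with the 38 lysosomal members coloured by group and the other genes in grey. The solid line marks equal values and the dashed lines a 2-fold difference, and Cts7 and Ctsl are the 2 members above the upper dashed line.

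Nearly all of the measured lysosomal genes lay within 2-fold between the arrays. Of the 56 members, 38 were well above background on both arrays, 4 on 1 array only and 14 on neither. Of all genes 50.4% were higher on the knockout array, and among the 38 members 20 were higher and 18 lower. For 13 of them the difference was smaller than the scanner error, and the median difference was 0.059, beside a median of 0.0031 over the 12958 genes measured on both arrays. The median size of a difference, whatever its sign, was 0.24 for the members and 0.29 for all genes. At 2-fold or more, 2 members were higher (Cts7 and Ctsl), where 3.95% of all genes were, and 0 were lower, where 3.63% of all genes were. In either direction, 2 of 38 passed 2-fold beside 7.59% of all genes, so the share among the members was near the background. At 1.5-fold, 3 members were higher (Mitf in addition) and 2 lower (Ctse and Atp6v0c), where 22.9% of all genes passed in either direction.

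The cathepsins and the pump differed in direction at this scaling. Of the 14 cathepsins measured on both arrays 10 were higher on the knockout array, with a median of 0.24, whereas 12 of the 17 pump and accessory genes were lower, with a median of -0.066. With the arrays centred on their medians instead, which raised the median of all genes from 0.0031 to 0.19, the pump median became 0.12, so its sign depends on the scaling. Relative to the median of all genes the pump lay at -0.069 and the cathepsins at 0.24 under either centring. Above that median were 5 of the 17 pump genes and 10 of the 14 cathepsins, again under either centring. The count of cathepsins above it was 9 with quantile normalization and 8 with loess. Normexp on all spots put the pump at 0.045. The distance of the cathepsins shrank to 0.11 when the probes of each gene were averaged, which changed only Ctsa and Ctsd among the 14.

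**Figure D2:**
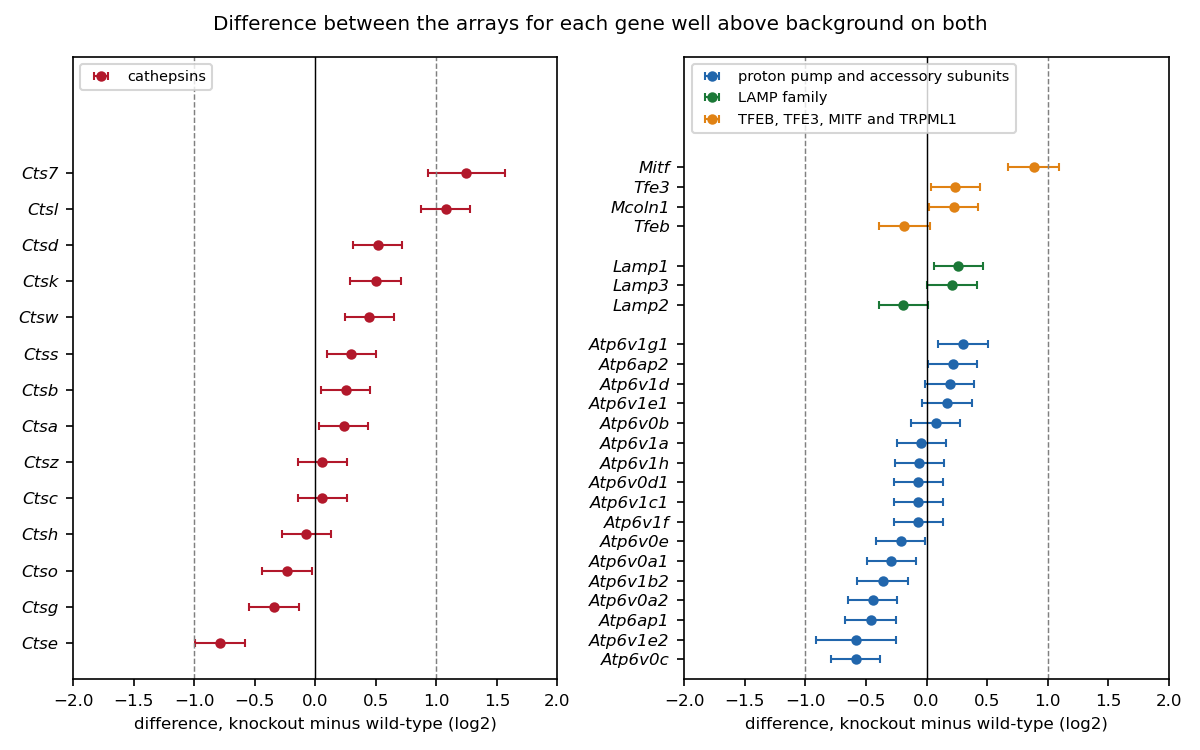
Difference in log2 signal, knockout minus wild-type (x), for each cathepsin (left) and each pump, LAMP, factor and channel gene (right) that was well above background on both arrays. Points are the gene's brightest probe, bars the scanner error, dashed lines 2-fold; the cathepsins run from Ctse at -0.79 to Cts7 at 1.25 and the pump genes from -0.59 to 0.30.

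Cysteine cathepsins are the largest class, and 9 of the 10 with a role outside the placenta were measured on both arrays. Ctsl, which degrades proteins in lysosomes and processes the invariant chain in thymic epithelium, had a signal of 2550 on the wild-type and 5140 on the knockout array. It was thus about 2.11-fold higher on the knockout array after scaling, a difference of 1.08 ± 0.20, the largest among the members with a bright signal. It was the member just past the 2-fold mark on the upper side, and Mitf, at 0.89, the next below it. Over 8 other ways of processing the signal Ctsl ranged from 1.01 to 1.36 and stayed past 2-fold in each. It was measured by a single probe, so no second probe bears on this value.

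Ctsk, the collagen-degrading enzyme of osteoclasts, was at 154 and 208 on the wild-type and knockout arrays, a difference of 0.50 ± 0.21. Ctsw, a cathepsin made mainly by NK cells and CD8 T cells, was at 882 and 1150, a difference of 0.45 ± 0.20. These values were higher on the knockout array by more than their scanner error, and Ctsk turned to -0.027 under one background correction (normexp) that 4 wild-type spots distort, as given in the closing section. The markers of CD8 and NK cells were also higher there, 10 of 11, with a median of 0.40 and a summed signal of 22653 on the wild-type and 41816 on the knockout array, and Klra1 (1.56) and Klre1 (0.89) differed most. Most of the difference in that sum came from Klra1, at 8790 and 24700. With normexp on all spots 7 of these 11 markers were higher and 4 lower, with a median of 0.46. Their part in the value of Ctsw was not tested.

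Ctss, which completes the cutting of the invariant chain in B cells, macrophages and dendritic cells, was at 37500 on the wild-type and 44100 on the knockout array, a difference of 0.30 ± 0.20. Ctsb, an abundant lysosomal cysteine protease, was at 28900 and 32900, with 0.25 ± 0.20. Both lay just outside their scanner error on the higher side. Ctsc, also called dipeptidyl peptidase I, which activates granzymes and neutrophil serine proteases, had 3940 and 3920 (0.058 ± 0.20), and Ctsz had 2590 and 2580 (0.060 ± 0.20). Ctsh, an aminopeptidase, had 13000 and 11800 (-0.075 ± 0.20). Ctso was at 359 and 292, with -0.23 ± 0.20, the lowest of the class. The signal of Ctsc, Ctsz and Ctsh differed between the arrays by less than the scanner error. Ctsf was well above background on the knockout array only, at 21.4 against 6.77, and that signal is below the lowest that counted as well above background on the wild-type array, 24.6, so no fold is given.

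Read by the brightest probe of each gene, the aspartic cathepsins went in opposite directions. Ctse, an endosomal protease found in gastric epithelium, B cells and dendritic cells, was at 1440 on the wild-type and 798 on the knockout array. This difference of -0.79 ± 0.20 was the lowest of all members measured on both arrays, and other processing gave values between -0.85 and -0.55. Ctsd, the main lysosomal aspartic protease, gave 4260 and 5820 with its brighter probe, a difference of 0.52 ± 0.20. Its dimmer probe gave 130 and 87, a difference of -0.51 ± 0.21, so the direction for Ctsd is not settled by these arrays.

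The serine cathepsins were split as well when read by the brightest probe. Ctsa, the protective protein that stabilises lysosomal β-galactosidase and neuraminidase, was at 34300 on the wild-type and 38600 on the knockout array with its brighter probe (0.24 ± 0.20). The dimmer Ctsa probe was at 269 and 143, a difference of -0.85 ± 0.21, the opposite direction. Ctsg, a granule protease of neutrophils and mast cells, was at 1170 and 883, with -0.34 ± 0.20. The list of mast cell, basophil and neutrophil markers had 9 of 14 members higher and 5 lower on the knockout array, with a median of 0.23 (-0.058 with normexp on all spots). In that list Elane was at 999 and 744 (-0.36) and Prtn3 at 67 and 30.1 (-1.09), while Mpo was at 2060 and 2500 (0.34). Its summed signal was 140911 on the wild-type and 144836 on the knockout array, mostly from S100a9 (92000 and 89000) and S100a8 (29800 and 34900). Ms4a2 was above background on neither array. The part of these cells in the value of Ctsg was not tested.

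A cluster of cathepsin genes on mouse chromosome 13 is expressed in placenta, and 9 of its genes were on the array. For 7 of them, Cts3, Cts6, Cts8, Ctsj, Ctsm, Ctsq and Ctsr, no signal was well above background on either array, with wild-type signals from 4.92 to 11.1. Cts7 was dim on both arrays, at 33.5 on the wild-type and 76.1 on the knockout array, a difference of 1.25 ± 0.32. That difference shrank to 0.58 with a normexp background correction that left out the distorting spots, below 2-fold, and turned to -0.42 with normexp on all spots. Ctsll3 was well above background on the wild-type array only, at 42.4 against 2.01, at least 4.15-fold higher there when the dim side is set at the lowest signal that counted as well above background on the knockout array, 9.76. These genes are close paralogs, and the array cannot show whether a weak signal of one comes from another transcript.

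The pump's V1 head is built from subunits A to H, some of which have a second form restricted to certain tissues. All 8 widely expressed V1 genes (Atp6v1a, Atp6v1b2, Atp6v1c1, Atp6v1d, Atp6v1e1, Atp6v1f, Atp6v1g1 and Atp6v1h) were well above background on both arrays, and so was Atp6v1e2, the testis form of subunit E. The tissue-restricted forms Atp6v1b1 (kidney), Atp6v1c2 (kidney and lung), Atp6v1g2 (brain) and Atp6v1g3 (kidney) were not, on either array. Of the 9 measured genes 3 were higher and 6 lower on the knockout array, with a median of -0.060, and in 6 the difference was smaller than the scanner error. After centring on the array medians 7 were higher and 2 lower, and with normexp on all spots 5 were higher and 4 lower.

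Atp6v1g1, a subunit of the stalk that joins the head to the ring, had the highest difference of the pump genes, 5800 on the wild-type and 6840 on the knockout array (0.30 ± 0.20). Atp6v1d, of the central rotor, was at 7470 and 8150 (0.19 ± 0.20), and Atp6v1e1, another stalk subunit, at 742 and 797 (0.17 ± 0.20). Atp6v1b2, the form of subunit B used in most cells, was at 144 and 107, with -0.36 ± 0.21. Atp6v1e2 was dim, at 33.4 and 21.3 (-0.58 ± 0.33), and ranged from -1.12 to -0.17 with the processing. Atp6v1a, the catalytic subunit, had 1400 and 1300 with one probe (-0.042 ± 0.20) and 1010 and 1270 with the other (0.40 ± 0.20). The remaining V1 genes, Atp6v1c1, Atp6v1f and Atp6v1h, had differences between -0.067 and -0.060.

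The V0 ring genes were lower on the knockout array in 5 of 6, with a median of -0.25. Atp6v0c, which encodes the proteolipid that forms most of the rotating ring, was at 460 on the wild-type and 293 on the knockout array, a difference of -0.59 ± 0.21, the lowest of the pump genes. Atp6v0a2, an a subunit found in the Golgi and endosomes, was at 1580 and 1110 (-0.44 ± 0.20), and Atp6v0a1 at 1560 and 1220 (-0.29 ± 0.20). Atp6v0e was at 2910 and 2400 (-0.21 ± 0.20), Atp6v0d1 at 471 and 430 (-0.066 ± 0.20), and Atp6v0b at 552 and 556 (0.076 ± 0.20). Centring on the array medians turned Atp6v0d1 to 0.12 and left 4 of 6 lower with a median of -0.065, and relative to all genes the V0 median was -0.25 under both centrings and -0.037 with normexp on all spots. Atp6v0a4, the kidney form, stayed near background on both arrays.

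Atp6v0d2, the d subunit of osteoclasts and some macrophages, and Atp6v0e2 were well above background on the knockout array only. The brighter of 2 Atp6v0d2 probes gave 23.1 on the wild-type and 31.8 on the knockout array, which is at least 1.35-fold higher, and Atp6v0e2 gave 13.5 and 21.7, for which no fold is given. Being above background on the knockout array only was frequent, at 1770 genes against 143 for the wild-type array only. Among accessory proteins, Atp6ap1, which helps assemble the pump, was lower with both probes, 180 and 125 with the brighter (-0.46 ± 0.21) and 85.7 and 52.1 with the dimmer (-0.65 ± 0.23). Atp6ap2, the prorenin receptor, was at 3360 and 3730 (0.22 ± 0.20). Atp6ap1l was above background on neither array.

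Of the 3 LAMP genes measured on both arrays 2 were higher and 1 lower on the knockout array, with a median of 0.21. Lamp1, a major glycoprotein of the lysosomal membrane that also appears on the surface of degranulating lymphocytes, was at 18300 on the wild-type and 21000 on the knockout array (0.26 ± 0.20). Lamp3, or DC-LAMP, a marker of mature dendritic cells, was at 3810 and 4210 (0.21 ± 0.20). Lamp2, needed for the fusion of autophagosomes with lysosomes, was measured through 2 transcript accessions and was lower with both, at 2090 and 1750 (-0.19 ± 0.20) and at 547 and 424 (-0.30 ± 0.20), although normexp on all spots turned the brighter probe to 0.026. The probe of Lamp5, a family member of brain, was spotted 10 times, and 0 of the 9 usable wild-type spots and 0 of the 10 knockout spots were well above background.

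Among the regulators, Mitf, the factor of melanocytes, mast cells and osteoclasts, differed most. Its brighter probe gave 150 on the wild-type and 265 on the knockout array, a difference of 0.89 ± 0.21, just under 2-fold, and 1.07 after centring on the medians. Its dimmer probe gave 36.7 and 20.2, a difference of -0.80 ± 0.33, and the mean of both was 0.045, so the direction rests on which probe is read. Markers of mast cells and basophils went both ways: Cpa3 was at 245 and 774 (1.72) and Fcer1a at 55.2 and 148 (1.49), while Tpsb2 was at 466 and 266 (-0.74), Mcpt8 at 74.6 and 41.0 (-0.80) and Ms4a2 near background on both arrays. Their part in the values of Mitf was not tested. Tfe3 gave 2030 and 2290 (0.24 ± 0.20) with its brighter and 164 and 131 (-0.26 ± 0.21) with its dimmer probe. Tfeb was at 216 and 182 (-0.18 ± 0.21), and Mcoln1 at 1280 and 1430 (0.22 ± 0.20). The signal of Tfeb differed by less than its scanner error.

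**Figure D3:**
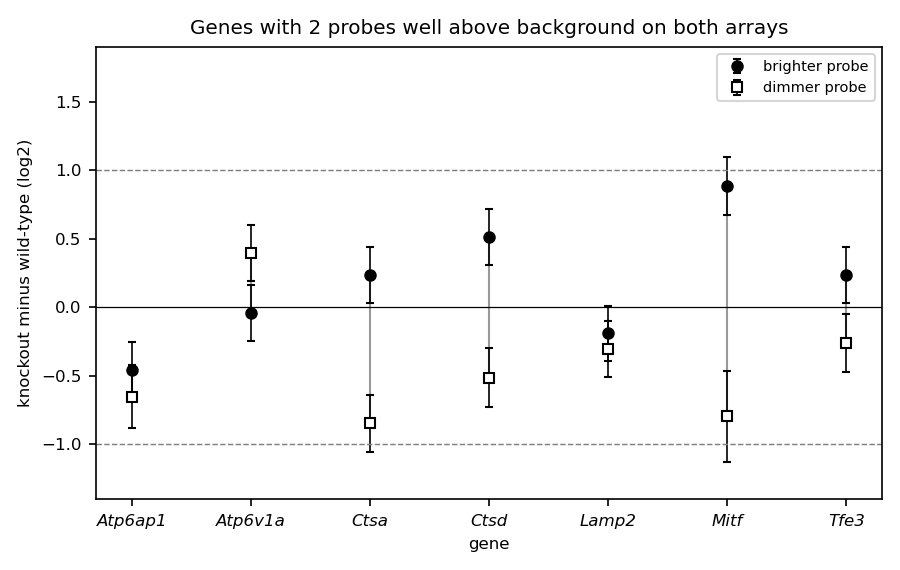
Difference in log2 signal, knockout minus wild-type (y), for the 7 members with 2 probes well above background on both arrays (x), the brighter probe filled and the dimmer open, with scanner errors. The probes of Ctsa, Ctsd, Mitf, Tfe3 and Atp6v1a lie on opposite sides of 0, and those of Atp6ap1 and Lamp2 on the same side.

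Of the 7 members with 2 such probes, 5 had probes of opposite sign, and in 4 of these the brightest probe was higher and the dimmest lower on the knockout array. Over all 2902 genes with several probes the sign differed in 37.8%, with the brightest higher and the dimmest lower in 783 and the reverse in 313. The range between probes of a gene had a median of 0.33 over all genes and of 0.50 over the 7 members. The scanner error given here is that of 1 probe's difference and is not the error of such a range. The difference between the arrays also depended on the signal. The median over all genes was -0.34 at mean signals under 50, -0.070 from 50 to 100, 0.054 from 1000 to 3000 and 0.077 from 3000 to 10000. All 7 members between 3000 and 10000 were higher on the knockout array, with a median of 0.22, where 61.4% of all genes in that range were. Dimmer members went the other way, with 4 of 11 higher between 1000 and 3000 (median -0.19, 57.0% of all genes higher) and 2 of 7 between 300 and 1000 (median -0.066, 52.0% of all genes higher). A curve fitted to this dependence (loess) left 10 of 14 cathepsins higher, with a median of 0.26, and 12 of 17 pump genes lower, with a median of -0.053. After loess the median of all genes was 0.043. Above it lay 8 of the 14 cathepsins, with 6 below, and 5 of the 17 pump genes, with 12 below.

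**Figure D4:**
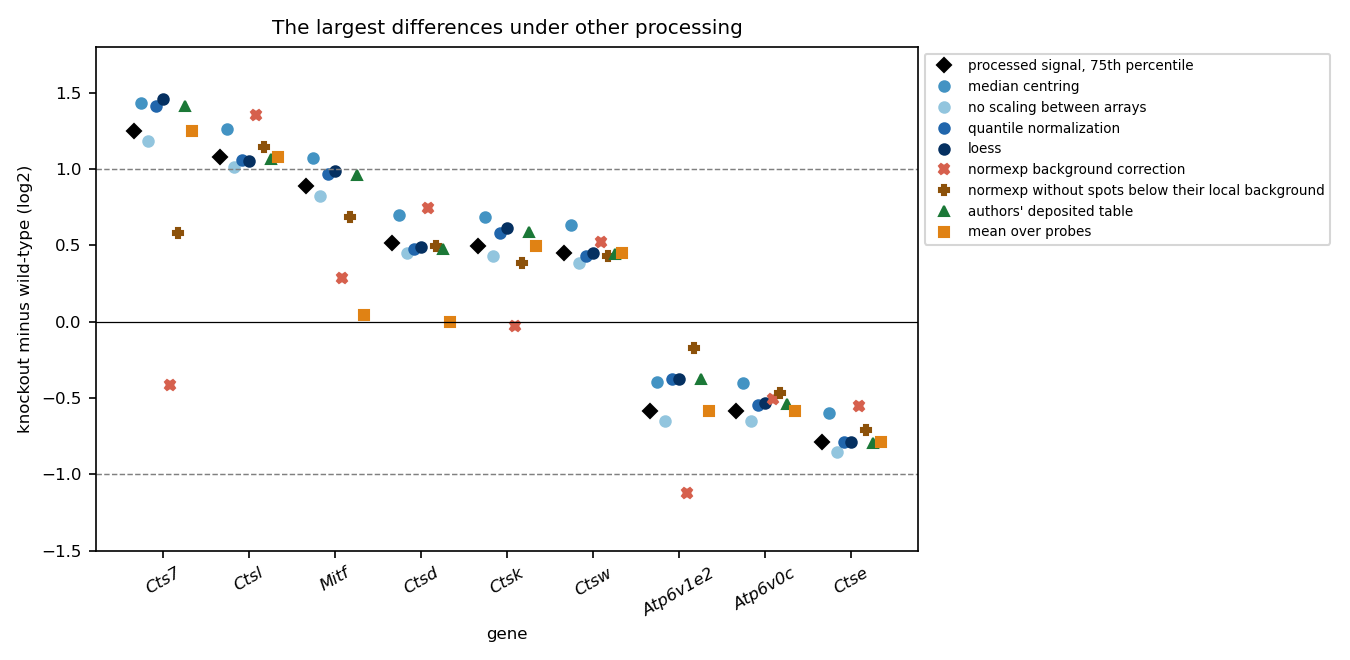
Difference in log2 signal, knockout minus wild-type (y), of the 9 members with the highest or lowest values (x) under the processing used in the text (black diamonds) and 8 alternatives (other symbols), with dashed lines at 2-fold. Ctsl lies between 1.01 and 1.36 and Ctse between -0.85 and -0.55, whereas Cts7 runs from -0.42 to 1.46 and Mitf from 0.045 to 1.07.

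Members were also divided by CACGTG in their promoter window, with no test. Of 9 such members measured on both arrays 6 were higher on the knockout array, with a median of 0.22, and of the 20 members without it 11 were higher, with a median of 0.059. Over all genes the medians were -0.0096 for the 1170 with CACGTG and 0.0041 for the 9203 without. For TCACGTGA, 3 of 6 members were higher, with a median of 0.092, and 14 of 23 without it, with a median of 0.076. The promoter with the 4 copies, that of Lamp1, belongs to a gene with a difference of 0.26, and the members with 2 copies had 0.52 (Ctsd, with -0.51 at its dimmer probe), 0.24 (Ctsa, with -0.85 at its dimmer probe), 0.22 (Mcoln1) and 0.076 (Atp6v0b).

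The soluble acid hydrolases share the lysosome with the cathepsins, and most of them were also higher. Of 39 measured on both arrays 0 passed 2-fold in either direction, beside 7.59% of all genes. On the knockout array 26 were higher and 13 lower, with a median of 0.22. Their summed signal went the other way, 317906 on the wild-type and 275164 on the knockout array, and rested on 3 bright probes, Gla (130000 and 99600), Sgsh (67400 and 50300) and Dnase2a (47600 and 40100). Hexa, a subunit of β-hexosaminidase, was at 1580 on the wild-type and 2320 on the knockout array, the highest difference at 0.62 ± 0.20. Naglu, which degrades heparan sulphate, was at 109 and 54.5, the lowest at -0.93 ± 0.22. The list's median stayed between 0.15 and 0.41 over the other ways of processing.

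Lysosomal membrane proteins and transporters were even, 16 higher and 16 lower with a median of 0.023. The median was 0.21 with 23 higher after median centring, and -0.090 with 12 higher over the mean of probes. Beside 7.59% of all genes, 1 of 32 passed 2-fold. That gene was Slc11a1, the NRAMP1 metal transporter of phagocyte lysosomes, at 138 on the wild-type and 274 on the knockout array, a difference of 1.05 ± 0.21. Laptm4b was at 66.6 and 121 (0.93 ± 0.23), and Cd63, a tetraspanin of late endosomes, at 5060 and 8340 (0.79 ± 0.20). Lower were Mfsd1, at 433 and 220 with its brighter probe (-0.91 ± 0.21), and Slc15a3, at 88.8 and 52.9 (-0.68 ± 0.23). Pump partners with other symbols had 4 of 11 higher and a median of -0.12, which became 0.064 with 8 higher after median centring and -0.0046 with 5 higher after loess. The a3 subunit gene Tcirg1 was at 698 and 613 (-0.12 ± 0.20). Ncoa7, whose product binds the pump, was the exception in this list, at 381 and 2270 with its brighter probe, 6.23-fold higher on the knockout array (2.64 ± 0.21). A second Ncoa7 probe, not well above background on both arrays, had a difference of -0.29, so the size of this difference rests on 1 probe.

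Endogenous inhibitors of cathepsins and related proteases were higher on the knockout array in 10 of 12, with a median of 0.28. Serpinb9, an inhibitor of granzyme B, was at 806 on the wild-type and 1870 on the knockout array and was the 1 member past 2-fold, at 2.43-fold (1.28 ± 0.20). Over all genes 3.95% were higher by 2-fold or more. Ctla2a, which inhibits cathepsin L and resembles its propeptide, was at 3470 and 6280 (0.92 ± 0.20). Ctla2b, its close paralog, was at 905 and 1510 (0.80 ± 0.20). Cst7, which encodes cystatin F, an inhibitor of cathepsin C, was at 696 and 1130 (0.76 ± 0.20). The stefin Stfa1, an inhibitor of cysteine cathepsins, was lower, at 228 and 118 (-0.89 ± 0.21), while Stfa2 and Stfa3, its close paralogs, were within 0.23 of equality. Ctsl and Ctla2a, whose product inhibits cathepsin L, were thus both higher on the knockout array.

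Genes that deliver enzymes to lysosomes had 14 of 23 higher and a median of 0.084, with Gga1 at -0.81 and Rab7 at -0.77 the lowest. Genes that hold TFEB at the lysosome or release it had 10 of 18 higher and a median of 0.12. Tfec, another member of the factor family that is found in macrophages, was at 160 and 239 (0.64 ± 0.21), and Xpo1, which exports TFEB from the nucleus, at 6250 and 3960 (-0.59 ± 0.20). Autophagy genes had 13 of 24 higher and a median of 0.049 (-0.016 without scaling), with Nbr1 at -0.92 and Atg9a at -0.83. None of these 3 lists had a member past 2-fold, where 7.59% of all genes passed in either direction.

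MHC class II genes and their invariant chain, the substrates and partners of cathepsins in antigen presentation, were lower on the knockout array in 9 of 10, with a median of -0.61. Cd74, the invariant chain itself, was at 18300 on the wild-type and 11100 on the knockout array (-0.66 ± 0.20), while Ctss, the protease that trims it, was higher. H2-DMb2, a chain of the DM molecule that loads peptides, was the 1 member past 2-fold, at 934 and 282, 3.17-fold lower on the knockout array (-1.66 ± 0.20). Its close paralog H2-DMb1 was at 16600 and 16200 (0.030 ± 0.20). Over all genes 3.63% were lower by 2-fold or more. The B cell markers, which come from a cell that makes class II, were lower in 11 of 12 with a median of -0.22, Blk at -1.41 and Cd79a at -1.18. With median centring 7 of the 12 were lower, with a median of -0.033, and with normexp on all spots 7, with a median of -0.093. Their summed signal was 139156 on the wild-type and 116007 on the knockout array, and the part of B cells in the class II values and in that of Ctse was not tested.

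**Figure D5:**
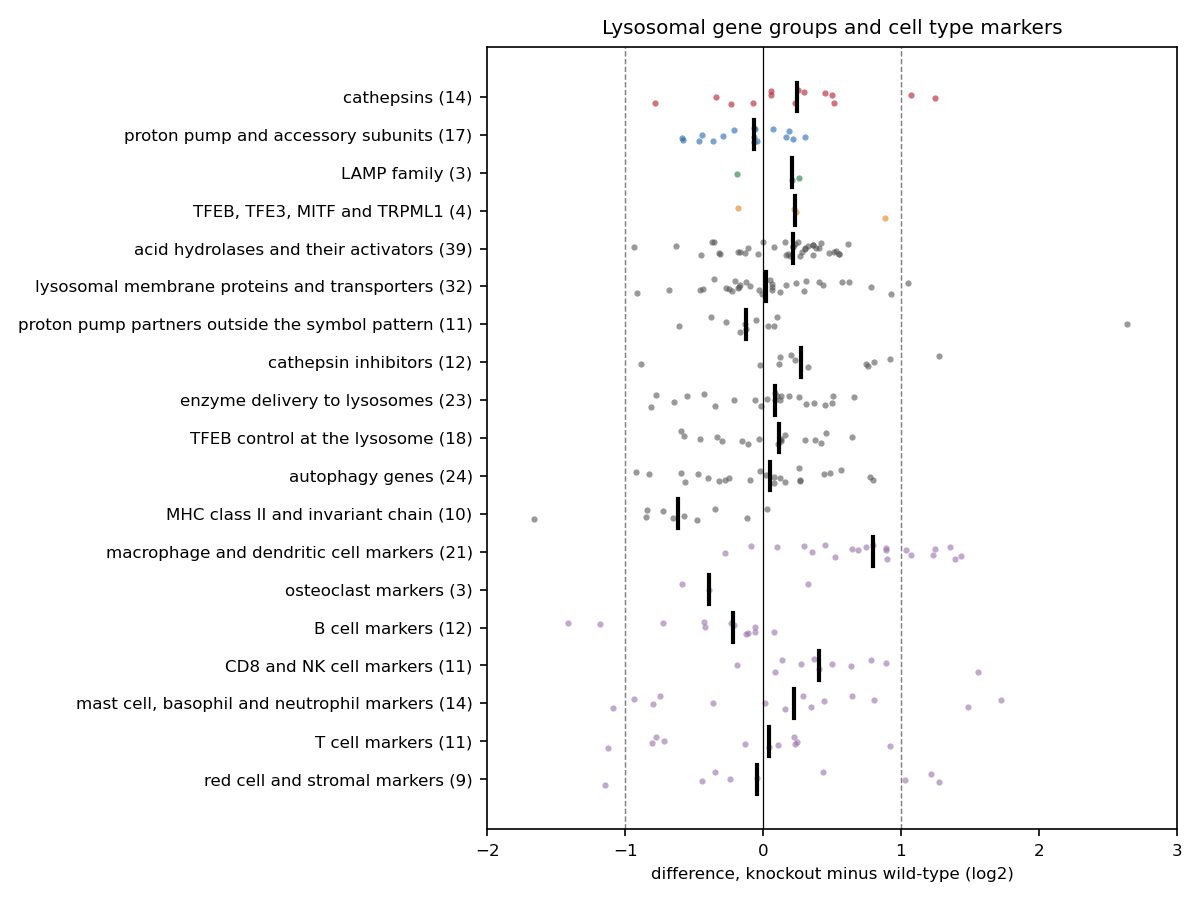
Difference in log2 signal, knockout minus wild-type (x), of every gene well above background on both arrays in each lysosomal group, pathway list and cell type marker list (y, number of genes in brackets). Points are genes, black bars are list medians and dashed lines mark 2-fold; cathepsins have a median of 0.24, macrophage and dendritic cell markers 0.80 and MHC class II genes -0.61.

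Macrophages make cathepsins in abundance, and their markers were also higher on the knockout array. Macrophage and dendritic cell markers were higher on the knockout array in 19 of 21, 7 of them by 2-fold or more, beside 3.95% of all genes. Their median was 0.80. Normexp lowered this median to 0.51 without the distorting spots, still with 19 higher, and to 0.26 with 14 higher on all spots. The summed signal of these 21 genes was 98711 on the wild-type and 114645 on the knockout array. Most of that sum was Siglech, at 74900 and 67500, 1 of the 2 genes that were lower (-0.085). Cd163 alone of the matched list was above background on neither array. Marco (4650 and 12000) and Mrc1 (273 and 684) had the largest differences, 1.43 and 1.39. Osteoclast markers, the other cell known for Ctsk and Atp6v0d2, had 1 of 3 higher, a median of -0.39 and a summed signal of 27150 and 32403. Nearly all of that sum was Acp5, the 1 that was higher, at 27000 and 32300. Calcr and Dcstamp were above background on neither array. The T cell markers had 6 of 11 higher and a median of 0.045, which was -0.020 without scaling, with Cd3e at -1.13, Lat at 0.92 and a summed signal of 70652 and 71154. Red cell and stromal markers had 4 of 9 higher and a median of -0.045 among those measured, 0.14 after median centring, with Col1a2 at 1.28 and Pdgfrb at 1.21. The part of macrophages in the values of Ctsl, Ctsd, Ctss and the hydrolases was not tested, as there is 1 bulk sample per genotype.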

How the data were processed

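RNA of 1 wild-type and 1 knockout culture was hybridised to 1-colour (Cy3) mouse arrays on 1 slide, read in 1 scan per the file headers. Signals were extracted by Agilent Feature Extraction, whose version the submitters' processing notes give as 11.0.1.1. The deposited intensity of a spot had its background subtracted within the array by that software, per the file headers. The values used here are the software's processed signals, which differ from the background-subtracted intensities. The authors' deposited table of log2 values for these arrays states neither its normalization nor its centring. For the 63 single-spot member probes its values lay within 0.010 (log2) of the running median of probes with similar scanner signal. That compares probes of like signal and does not mean equal values. The Cts7 difference, for example, was 1.41 in that table and 1.25 with the processing used here.

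From there, outlier-flagged spots (228 and 138 of 43020) were left out, spots of a probe averaged as log2, and each array scaled to its 75th percentile. Probes were named through unversioned RefSeq accessions (27220 of 39411 matched, GRCm38.p6 table, names only, since the headers name mm9). A gene was read by the brightest of its probes that 1 or both arrays showed well above background, and counted as higher or lower at 2-fold (1 on the log2 scale) if well above background on both. Lower bounds set the dim array at its lowest signal well above background or the probe's own, whichever was higher. Members and lists were chosen with earlier results of these data known. The rule for named genes took every member, in full those past 2-fold, the 3 highest and lowest cathepsins and pump genes, the LAMPs and regulators, genes with disagreeing probes and those above background on 1 array, up to 4 members past 2-fold or the 2 largest of each pathway list, and the 2 largest of each marker list. A gene chosen by this rule is not reported here. Hexa, Gla, Sgsh, Dnase2a, Acp5, Siglech, Tpsb2, Mcpt8, Elane, Prtn3, Mpo, S100a8, S100a9, Cd63, Laptm4b, Mfsd1, Slc15a3, Tcirg1, Ctla2a, Ctla2b, Cst7, Stfa1, Stfa2, Stfa3, Cd74 and H2-DMb1 were named after their values were seen. The functions were tested on simulated data. Python 3.11.15, R 4.3.3 and limma 3.58.1 were used. The alternatives were other scalings (median, none, quantile, loess), normexp, the authors' table, the mean over probes, filters and fold thresholds.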

Additional observations from a re-analysis of the deposited data

How the results depend on the processing

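Under centring on the median, no scaling, quantile normalization, loess and the authors' deposited log2 table, each of the 38 members measured on both arrays stayed within its scanner error of the value given, although small values changed sign: Atp6v0d1, Atp6v1a, Atp6v1c1, Atp6v1f, Atp6v1h, Ctsh and Tfeb with median centring, and Ctsc and Ctsz without scaling. Medians of groups and lists were taken as moved when they shifted by more than 0.20, the members' median scanner error, and counts when they changed by over 1.5 times. Centring on the median put 1 regulator (Mitf) past 2-fold. Averaging the probes of a gene moved 5 of the 38 members by more than their scanner error. It brought the regulators' median to 0.017, since the probes of Mitf and Tfe3 disagree. Normexp with an offset of 50 on the median intensity gave 1 member higher, a cathepsin, and 1 lower, a pump gene (Atp6v1e2), a LAMP median of 0.51, a class II median of -0.40 and a Cts7 difference of -0.42, the 1 member past 2-fold that changed sign. That correction was distorted by 4 wild-type gene spots that lay below their local background, the lowest with a net signal of -2497. With them it added a median of 173 to the wild-type and 38.9 to the knockout net signal, and without them 38.6 and 38.9. Normexp on all spots moved 21 of the 38 members by more than their scanner error, besides Cts7, which changed sign. Leaving the 4 spots out, an alternative chosen after seeing the data, moved 2 of 38 members, Cts7 to 0.58 and Atp6v1e2 to -0.17, and left 1 member higher (Ctsl). With a signal at or above the median gene 1 cathepsin was 2-fold higher (Ctsl). At 3-fold there were 0, and at 1.5-fold 1 cathepsin, 1 pump gene, 2 members in all, were lower and 1 regulator higher. Regardless of background flags 8 members were 2-fold lower, 6 cathepsins and 2 pump genes, none of them well above background on both arrays. Over all genes the 2-fold calls were 512 higher and 471 lower, against 801 and 292 after median centring, 614 and 349 with quantile normalization, 654 and 341 with loess, 631 and 357 in the authors' deposited table, 206 and 1179 with normexp and 229 and 136 with normexp without the 4 spots. No paired analysis was possible because each genotype has 1 array. The number of arrays limits the precision, and signals under about 50 lie near the background.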
